A study of Mus musculus with 39 samples.

Results

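Msi1 and Msi2 encode the Musashi RNA-binding proteins, and the genome-wide maps of Notch and RBPJ binding in the embryonic mouse brain were read here at these 2 genes out of 21938 protein-coding genes. Every peak whose nearest protein-coding start site on mm10 belonged to Msi1 or Msi2 was taken as a member. This gave 28 of 20809 consensus peaks on the nuclear chromosomes, 25 for Msi2 and 3 for Msi1, and 49 of the 25453 peaks in the 4 lists from which the consensus peaks had been merged. The genes were selected on measured values, the number of radial glia Notch peaks, of which Msi2 held the most of any gene. Its count and its rank are therefore a description and carry no test.

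Musashi proteins bind single-stranded RNA through a pair of RNA recognition motifs and control the translation and stability of the mRNAs they hold. In the nervous system they are known as markers and regulators of neural stem and progenitor cells, and repression of the mRNA for Numb, an inhibitor of Notch signalling, is the classical example of their action. In canonical Notch signalling the intracellular domain of the receptor, NICD, is released by cleavage, enters the nucleus and joins RBPJ, the DNA-binding factor of the pathway.

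Binding had been profiled by in utero Targeted DamID, in which plasmids are electroporated into the brains of embryos and a Dam methylase joined to Notch or RBPJ marks the GATC sites around the DNA it visits. The embryos were wild-type mice, electroporated at E13.5 and dissected at E14.5. The Hes5 promoter drove expression in radial glial cells (RGCs), the neural stem cells of the cortex, and the Tα1 promoter, a fragment of Tuba1a, drove it in intermediate progenitor cells (IPCs), their committed daughters. The RGC Notch list rested on 4 samples, 2 with a fusion to mouse NdECD, a receptor without its extracellular domain, and 2 with a fusion to mouse NICD. The IPC Notch list rested on 4 samples, all with mouse NICD, so that Notch was supplied ectopically to these cells. The RGC RBPJ list and the IPC RBPJ list rested on 3 samples each, with a fusion to human RBPJ1. Peaks had been called for every pair of a fusion and a Dam-only sample. With the Hes5 promoter 5 Dam-only samples had been made, and with the Tα1 promoter 4, besides others, and the sources used here do not say which of them entered each list, so lists can share controls. The lists hold positions pooled over samples and no height, so they give neither the spread between samples nor the sequencing depth, and no difference below was tested. A peak that is absent from a list was not called there, and weaker binding cannot be told apart from none. The purity of RGCs and IPCs could not be checked against marker genes, since no expression values were read.

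Msi2 (ENSMUSG00000069769) lay on the minus strand of mm10 at chr11:88339382-88718513, a gene record of 379 kb with 14 exons in the coding transcript ENSMUST00000107909. Msi1 (ENSMUSG00000054256) lay on the plus strand at chr5:115429599-115455698, a record of 26.1 kb with 15 exons in ENSMUST00000150779. The stretch of genome nearer to an Msi2 start site than to that of any other protein-coding gene measured 338 kb and ran between Ccdc182 and Akap1. The corresponding stretch of Msi1 measured 61.6 kb and ran between Cox6a1 and Pla2g1b. Msi2 peaks are numbered below from 1 to 25 in the direction of transcription, and Msi1 peaks from 1 to 3.

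The DNA under the peaks is shown first for the places on which the description turns. Sequences are read 5′ to 3′ from GRCm38.p6 on the strand given. The promoter of Msi2 and the narrowest Msi2 peak, peak 13, are printed with GATC, the site that Dam methylates, in capitals. The promoter window covers the 250 bases before the outermost start site and overlaps, on the opposite strand, an annotated exon of a noncoding transcript. It held 1 GATC, and the 287 bp of peak 13 held 2.
Msi2 promoter, chr11:88718514-88718763, minus strand: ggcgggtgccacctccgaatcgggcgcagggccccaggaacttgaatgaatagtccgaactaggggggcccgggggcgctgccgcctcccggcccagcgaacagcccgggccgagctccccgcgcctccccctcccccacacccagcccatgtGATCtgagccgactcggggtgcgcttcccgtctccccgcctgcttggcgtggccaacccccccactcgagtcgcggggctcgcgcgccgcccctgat
Msi2 peak 13, chr11:88594096-88594382, minus strand: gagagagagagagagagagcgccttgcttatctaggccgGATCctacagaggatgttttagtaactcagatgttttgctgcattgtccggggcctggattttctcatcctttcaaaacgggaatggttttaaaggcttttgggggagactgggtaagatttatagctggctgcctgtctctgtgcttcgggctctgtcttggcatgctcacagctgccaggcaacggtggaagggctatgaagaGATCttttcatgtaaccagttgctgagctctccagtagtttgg

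RBPJ recognises the core word TTCCCA, which was searched on both strands, and its longer form TTCCCAC. The next lines show, with TTCCCA in capitals, all 4 words in the segment of Msi2 peak 21 that all 4 lists covered, and the one place in the Musashi peaks where 2 words faced each other on opposite strands within 30 bp, in peak 25. There the 2 words began 8 bp apart.
Msi2 peak 21 word a, chr11:88481413-88481442, minus strand: agtgctaagatcTTCCCAgccacatacaca
Msi2 peak 21 word b, chr11:88481905-88481934, plus strand: gggctcttcctgTTCCCAtgctttggcggg
Msi2 peak 21 word c, chr11:88482624-88482653, minus strand: cgtattgattccTTCCCAtctcgtgctttt
Msi2 peak 21 word d, chr11:88483439-88483468, minus strand: gagagtagccccTTCCCAgctatttgacct
Msi2 peak 25, facing words, chr11:88441912-88441941, plus strand: cttgccatTTCCCAtcTGGGAAcatctggc

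The longer word TTCCCAC is shown in capitals where it occurred in the widest Msi2 peak, peak 15, in peak 14 over the internal start site, and in the one Msi1 peak that carried it, so that the same word can be read in both genes. The Msi2 words printed here lay inside RGC RBPJ peaks. Those of Msi1 lay in the part of peak 1 called for RGC Notch alone, past the end of its RGC RBPJ peak at 115401472.
Msi2 peak 15 word a, chr11:88582399-88582428, minus strand: gtagggacttgTTCCCACaaacctgggctg
Msi2 peak 15 word b, chr11:88583459-88583488, plus strand: gtgctttttcagTTCCCACtgaaaaccatc
Msi2 peak 15 word c, chr11:88584162-88584191, minus strand: tgctgcctcatTTCCCACattccccgttta
Msi2 peak 15 word d, chr11:88585592-88585621, minus strand: gagaagaaagtTTCCCACttctcagctgct
Msi2 peak 15 word e, chr11:88586134-88586163, plus strand: tggacaacttctTTCCCACcatccacatcc
Msi2 peak 14, chr11:88588754-88588783, minus strand: gaaagcagcctTTCCCACagtcctcctggc
Msi1 peak 1 word a, chr5:115402108-115402137, minus strand: tccagccagtcTTCCCACctacctgttgtc
Msi1 peak 1 word b, chr5:115403955-115403984, minus strand: acctgacctgcTTCCCACccacccacagga

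Msi2 carried peaks of both proteins in both cell types, whereas Msi1 carried peaks in RGCs only. In the RGC Notch list Msi2 had 15 peaks and Msi1 had 1. In the RGC RBPJ list Msi2 had 20 and Msi1 had 3. Msi2 had 5 peaks in the IPC Notch list and 5 in the IPC RBPJ list, and Msi1 had 0 in each. Such calls were uncommon for single genes. At least 1 peak was assigned to 11.5% of protein-coding genes for RGC Notch, 30.9% for RGC RBPJ, 6.91% for IPC Notch and 16.1% for IPC RBPJ. The absence of IPC peaks at Msi1 was thus shared with most genes, and its stretch was shorter than that of Msi2.

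**Figure D1:**
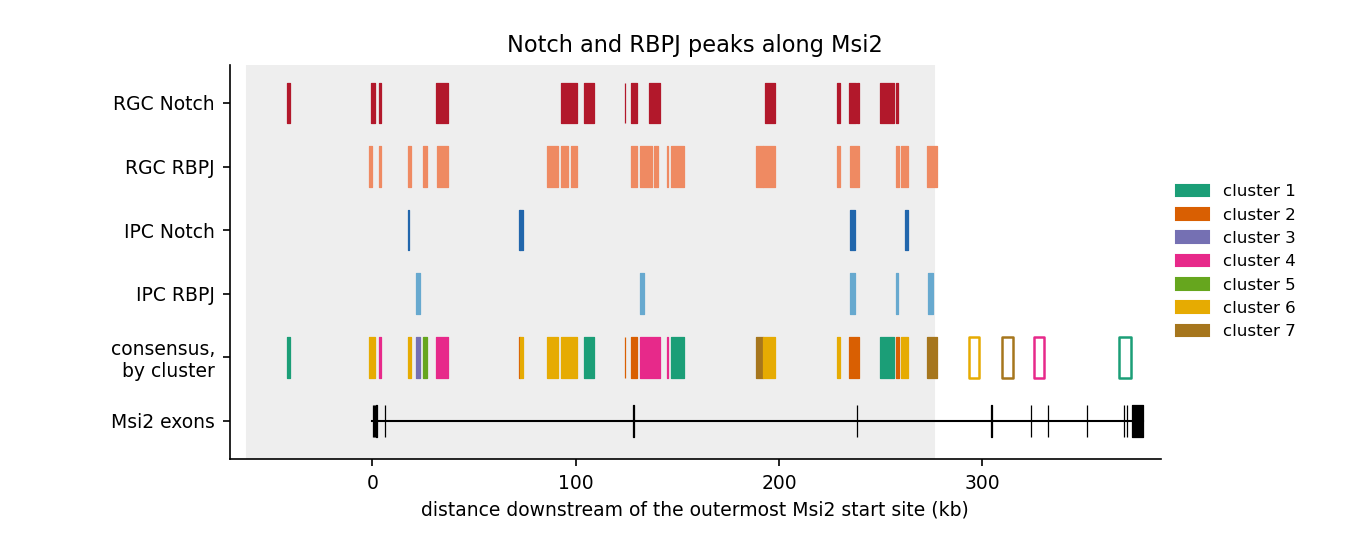
Peaks along Msi2, with distance downstream of its outermost start site in kb on the x axis and 1 row per peak list, then the 25 consensus peaks coloured by cluster and the exons of the gene. The grey area is the 338 kb stretch nearest to Msi2, and the 4 open boxes are consensus peaks inside the gene record that lay nearer to Ccdc182, whose list peaks are not drawn. RGC peaks run through the large introns, and 5 peaks of each IPC list are spread among them.

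Since a long stretch can collect more peaks, the counts were set against its length. Msi2 had 4.44 RGC Notch peaks per 100 kb, 32.7 times the 0.136 per 100 kb of the nuclear genome. For RGC RBPJ the density was 5.92 per 100 kb against 0.517 in the genome, a ratio of 11.4. The ratios in IPCs were 18.7 for Notch and 7.34 for RBPJ, both from densities of 1.48 per 100 kb. Msi1 had 1.62 RGC Notch peaks per 100 kb, a ratio of 12 that rested on 1 peak, and 4.87 RGC RBPJ peaks per 100 kb, a ratio of 9.42. The 2 genes were closer in RGC RBPJ density than in RGC Notch density, which for Msi1 is that of 1 peak. Choosing Msi2 by its RGC Notch peaks widens the difference in Notch, so nothing is read from this.

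By RGC Notch density Msi2 ranked 198 and Msi1 ranked 702 of 21921 genes with a stretch of their own, because a single peak in a very short stretch gives a high density. Among the 5956 genes with stretches of at least 100 kb, Msi2 ranked 1 for RGC Notch and also 1 for RGC RBPJ density. In that set it ranked 35 for IPC Notch and 135 for IPC RBPJ. RGC Notch peaks covered 15.2% of the Msi2 stretch, rank 2 in that set, where the highest share was 15.5%. They covered 0.362% of the nuclear genome. RGC RBPJ peaks covered 20% of the Msi2 stretch, rank 3, against 1.22% of the genome. Among the 2492 gene records of at least 100 kb, Msi2 ranked 2 by RGC Notch peaks per 100 kb of record. Choosing Msi2 by its RGC Notch peaks raised its RGC Notch ranks directly. It can also raise its RGC RBPJ ranks, since the 2 lists share calls, so all these ranks are a description.

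**Figure D2:**
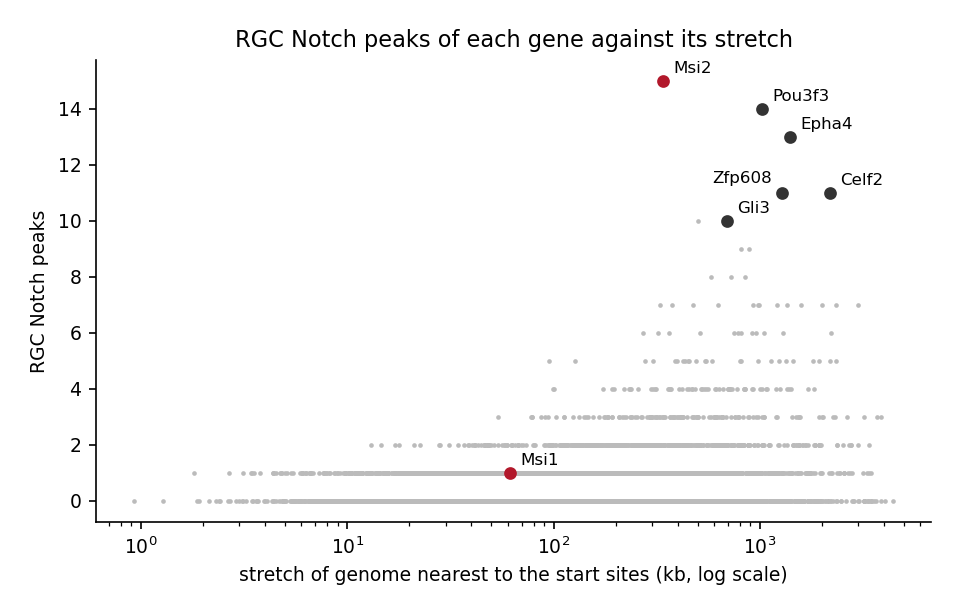
RGC Notch peaks per gene on the y axis against the stretch of genome nearest to its start sites in kb, on a log scale, for the 8493 genes with at least 1 consensus peak. Msi2 sits highest with 15 peaks on 338 kb, to the left of Pou3f3, Epha4, Zfp608 and Celf2, whose stretches exceed 1000 kb, and Msi1 sits at 1 peak on 61.6 kb.

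The genes next to Msi2 in the count of RGC Notch peaks were Pou3f3, a POU-domain transcription factor of neural progenitors, with 14 peaks, and Epha4, an ephrin receptor, with 13. These lay on 1022.8 and 1391.3 kb, which gave 1.37 and 0.934 peaks per 100 kb. The gene most like Msi2 by its counts over the 4 lists was again Pou3f3, at a Euclidean distance of 6, with 14, 21, 8 and 10 peaks for RGC Notch, RGC RBPJ, IPC Notch and IPC RBPJ. Gli3, a transcription factor of Hedgehog signalling, followed at 7.14 and Celf2, an RNA-binding splicing regulator, at 8.06. The pattern of Msi1, with counts of 1, 3, 0 and 0, was shared exactly by 43 of the 8493 genes compared, of which 1810013L24Rik, Adgb and Atf7 are the first by name.

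Notch and RBPJ were called together at many of the Msi2 peaks in RGCs and at 1 in IPCs. Of the 25 consensus peaks, 14 (56.0%, Wilson 95% interval 37.1 to 73.3) were called in RGC Notch, against 17.7% of all consensus peaks, a share that the choice of Msi2 raised. In RGC RBPJ 18 (72.0%, 52.4 to 85.7) were called, against 67.6% of all. In IPC Notch 5 (20%, 8.86 to 39.1) were called against 10.1%, and in IPC RBPJ likewise 5 against 26.2%. The intervals cover counting error over peaks only, and peaks of 1 gene share their libraries and neighbourhood. By these shares the Msi2 peaks stood near the background for RBPJ in both cell types.

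Both RGC lists were called at 10 of 25 Msi2 peaks (40%, 23.4 to 59.3) and at 1 of 3 Msi1 peaks, against 7.77% of all consensus peaks. Since the rule chose Msi2 by its Notch peaks, the share of its Notch peaks that also held RBPJ is the closer comparison. This was 10 of 14 (71.4%), against 1616 of 3688 (43.8%) in the genome. The RGC Notch peaks of Msi2 were also wider, with a median of 3381 bp against 2389 bp for the list. RGC RBPJ peaks covered 20% of its stretch, against 1.22% of the genome. What these add to the share was not tested. Both IPC lists were called at 1 Msi2 peak and at 0 of 3 Msi1 peaks, against 2.36% of all. Of the 5 IPC RBPJ peaks 4 shared their consensus peak with RGC RBPJ (80.0%, against 26.1% of all), whereas of the 5 IPC Notch peaks 1 shared it with RGC Notch (20%, against 23.5%).

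In base pairs, Notch and RBPJ mostly filled the same ground at the 10 jointly called peaks. They shared between 756 and 6693 bp, and at 7 of the 10 at least 90% of the RGC Notch peak lay inside RGC RBPJ peaks. At peak 14 the Notch peak of 3381 bp and the RBPJ peak of 3280 bp shared an edge. The smallest share was at the main promoter, where 828 bp were in common, 38.9% of the Notch peak, and peak 15 followed with 65.2%. Over the whole of Msi2, 61.7% of the RGC Notch base pairs lay under RGC RBPJ, against 39.2% in the genome. The wide cover of the Msi2 stretch by RGC RBPJ peaks limits this comparison too. In the other direction 46.6% of the RGC RBPJ base pairs of Msi2 lay under RGC Notch, against 11.7%, a share that the choice of Msi2 raised directly.

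The number of lists per consensus peak is given as a description, since choosing Msi2 by its RGC Notch peaks adds calls to its peaks. At Msi2 12 peaks (48.0%) were called in 1 list, 10 (40%) in 2, 2 (8%) in 3 and 1 (4%) in all 4. The corresponding shares of all consensus peaks were 82.9%, 13.2%, 3.20% and 0.678%. The most frequent combination at Msi2 was RGC Notch with RGC RBPJ alone, at 7 peaks, and the next was RGC RBPJ alone, at 5. Over all peaks these combinations made up 5.01% and 52.1%.

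Consensus peaks had been divided by their averaged binding intensities into 8 clusters. In the terms of the study, clusters 2, 4, 6 and 7 had both proteins and the other 4 had 1 protein alone, with cluster 4 bound in RGCs and clusters 2, 6 and 7 bound in RGCs and IPCs. Cluster 6 held the most Msi2 peaks, 8 (32%, against 10.8% of all consensus peaks), and cluster 2 held 5 (20%, against 4.76%). Clusters 1 and 4 held 4 each, cluster 7 held 2, clusters 3 and 5 held 1 each, and cluster 8 held 0. Clusters 5 and 8, with RBPJ alone in RGCs, made up 22.5% and 14.4% of all peaks. Together the clusters with both proteins held 19 of 25 Msi2 peaks (76.0%), against 36.3% of all. Choosing Msi2 by its RGC Notch peaks favours clusters with Notch over those with RBPJ alone, so nothing is read from these shares. For Msi1 they held 1 of 3.

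**Figure D3:**
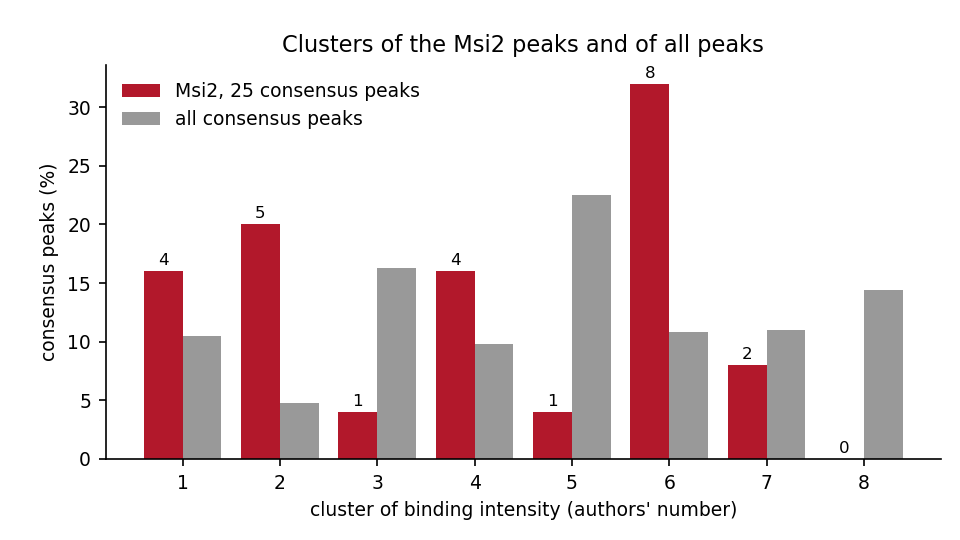
Share of consensus peaks in each of the 8 clusters on the y axis, in percent, for the 25 Msi2 peaks (red, with the number of peaks above the bar) and for all 20809 consensus peaks (grey). The red bars are highest at cluster 6, with 8 peaks, and cluster 2, with 5, and cluster 8 has none of Msi2.

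The cluster of a peak and its calls did not always name the same proteins. Of the 8 cluster 6 peaks of Msi2, peaks 2, 11, 19 and 20 were called for Notch and RBPJ in RGCs, and peaks 4 and 24 for RBPJ in RGCs and Notch in IPCs. Peak 10 was called for RGC RBPJ alone and peak 9 for IPC Notch alone. In cluster 1, which the study describes as Notch alone in RGCs, peaks 1, 12 and 22 were called for RGC Notch alone, but peak 17 for RGC RBPJ alone. Cluster numbers rest on intensity and calls on a threshold, and the intensities were not among the values read.

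Along the gene, the Msi2 peaks were dense and mostly intronic. The median gap between neighbouring consensus peaks was 3.37 kb, against 53.2 kb over the genome, and 15 of 24 gaps (62.5%) were under 5 kb, against 9.10%. The smallest gap measured 20 bp, between peaks 8 and 9, both called in IPC Notch alone, and the next 75 bp, between peaks 18 and 19. Since peaks assigned to 1 crowded gene must lie close together, these gaps restate its density. Between RGC Notch peaks of the list the median gap was 7.88 kb and between RGC RBPJ peaks 4.75 kb, whereas between IPC Notch peaks it was 39.3 kb and between IPC RBPJ peaks 61 kb.

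By midpoint, 23 of 25 Msi2 peaks lay in an intron, where 47.3% of all consensus peaks lay, and 2 lay upstream of the outermost start site. The Msi2 stretch ran from 88442103 to 88780026, and most of it lay inside the gene record, which ended at 88718513. The assignment itself thus favours introns, and nothing is read from this share. Intron 5, of 122 kb, held 10 peaks, intron 6, of 110 kb, held 8, and intron 7, of 66 kb, held 4, besides 1 that lay nearer to Ccdc182. These gave 8.18, 7.27 and 7.57 peaks per 100 kb of intron, so that the 3 long introns were filled to much the same degree. Peak 3 lay in intron 4. In all, 2 of the 25 peaks covered an annotated start site, against 16.6% of all consensus peaks. Within 5 kb of one lay 5, and 6 lay over 100 kb away, for which no share of all peaks was computed. The median distance to the nearest start site was 31.1 kb and the greatest 145 kb. For peaks 8 to 25 these distances run to an internal start site at 88590147, which belongs to a retained-intron transcript alone. From the outermost start site the peak midpoints lay a median of 124 kb and at most 275 kb downstream. With 1 start site per gene, 6 of the 25 peaks were nearer to Ccdc182.

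Gaps over 30 kb, a limit set after the positions had been seen, split the peaks into 5 groups. Peak 1 stood alone at chr11:88759072-88760603, 40.6 kb upstream of the outermost start site, 1532 bp wide and called for RGC Notch alone. Peaks 2 to 7 spanned 39.0 kb from the promoter into intron 5. Peaks 8 to 17 spanned 81.3 kb around the internal start site, peaks 18 and 19 spanned 9.44 kb, and peaks 20 to 25 spanned 49.2 kb in introns 6 and 7. Each of the groups with several peaks held RGC Notch together with RGC RBPJ, at 3, 3, 1 and 3 peaks in that order. IPC calls were present in all of them except that of peaks 18 and 19.

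At the main promoter, peak 2 spanned chr11:88717317-88720223. Its RGC Notch peak of 2126 bp covered all 6 start sites there, which lie from 88718101 to 88718513. Its RGC RBPJ peak of 1609 bp covered none of them and began 102 bp upstream of the outermost. Neither IPC list had a peak there. The nearest IPC Notch peak lay 16995 bp from the innermost of these start sites, in peak 4, and the nearest IPC RBPJ peak 20822 bp from it, in peak 5. Peak 3, only 1.87 kb further, at chr11:88714119-88715442, was again called for both proteins in RGCs and for neither in IPCs, and belonged to cluster 4.

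The rest of the first intronic group differed from peak to peak. Peak 4 was called for RGC RBPJ over 1583 bp and for IPC Notch over 649 bp. Peak 5, at chr11:88695305-88697279, was called for IPC RBPJ alone and was the only Msi2 peak in cluster 3, the cluster of RBPJ alone in IPCs. Peak 6 was called for RGC RBPJ alone and was the only one in cluster 5. Peak 7, at chr11:88681252-88687028, was called for both proteins in RGCs, with 4977 bp in common.

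In the second intronic group, peaks 8 and 9 were called for IPC Notch alone, over 543 and 1267 bp, in clusters 2 and 6. Peaks 10 and 11 were wide, with 5629 and 8251 bp. Peak 11 joined 1 RGC Notch peak of 8109 bp with 2 RGC RBPJ peaks of 3037 and 3798 bp, and peak 10 held RGC RBPJ alone and lay 1.27 kb from that Notch peak. Peak 12 (4890 bp) and peak 13 (287 bp) were called for RGC Notch alone, and the nearest RGC RBPJ peaks lay 3.42 and 2.68 kb away. Peak 13, printed above, was the narrowest Musashi peak.

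An annotated internal start site of Msi2 lay under peaks of both proteins in RGCs. It lies at 88590147, the first base of exon 6 of the coding transcript, where a retained-intron transcript, ENSMUST00000148013, begins. Peak 14, at chr11:88588136-88591516, covered it with RGC Notch and with RGC RBPJ. Peak 15, at chr11:88577069-88587045, was the widest with 9977 bp and joined a Notch peak of 5590 bp, 2 RGC RBPJ peaks and an IPC RBPJ peak of 1991 bp. Peak 16 in cluster 4 and peak 17 in cluster 1, the first 827 and the second 6715 bp wide, were called for RGC RBPJ alone.

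Further downstream, peaks 18 and 19 formed nearly continuous cover of 9.44 kb. Peak 18 was called for RGC RBPJ alone, and peak 19, at chr11:88520359-88526488, for both proteins in RGCs, where the whole Notch peak of 4946 bp lay inside the RBPJ peak. Peak 20, at chr11:88488535-88490034, was also called for both proteins in RGCs.

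Peak 21 was the only Musashi peak called in all 4 lists. It spanned chr11:88479052-88484224, touched exon 7 and belonged to cluster 2. In RGCs it was covered by 2 Notch peaks of 877 and 3412 bp and an RBPJ peak of 4749 bp, and in IPCs by a Notch peak of 2516 bp and an RBPJ peak of 2384 bp. The IPC RBPJ peak lay wholly inside the other 3 lists, so the segment common to all lists was this peak itself, chr11:88481255-88483638. Over the genome 141 of 20809 consensus peaks (0.678%) were called in all 4 lists.

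Peaks 22 to 25 closed the series. Peak 22, at chr11:88461713-88468760, was called for RGC Notch alone over 7048 bp, although an RGC RBPJ peak lay 1.01 kb further on. That was in peak 23, of 1163 bp, where RGC Notch, RGC RBPJ and IPC RBPJ shared an edge, at 88460703. Peak 24 was called for RGC RBPJ and IPC Notch. Peak 25, at chr11:88440809-88445556, was called for RBPJ in RGCs and, inside that peak, over 2560 bp in IPCs.

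The border of the Msi2 stretch cut through its gene record. Peak 25 straddled it and counted for Msi2 at 145 kb from its start site. The first peak beyond, at chr11:88420229-88425125, lay in intron 7 of Msi2 but 126 kb from the start of Ccdc182 and 165 kb from that of Msi2. In all, 4 consensus peaks inside the Msi2 record were assigned to Ccdc182, of which 3 were called for both proteins in RGCs and 1 for RBPJ in both cell types. Counted by the gene record, Msi2 held 28 consensus peaks, 16 of them called in RGC Notch, 22 in RGC RBPJ and 6 in each IPC list. On the upstream side the first peak beyond the stretch was called for RGC RBPJ and lay 55.7 kb from Akap1 and 66.8 kb from Msi2.

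The 3 peaks of Msi1 had another arrangement of calls, with Notch called far upstream and RBPJ alone called in the gene. Peak 1, at chr5:115398522-115405043, lay 24.6 kb upstream of the outermost start site and belonged to cluster 1. The RGC Notch peak filled its 6522 bp, and the RGC RBPJ peak covered 2933 bp at the distal end. Peak 2, at chr5:115430706-115437779, was called for RGC RBPJ alone over 7074 bp. By intensity, however, peak 2 belonged to cluster 6, which in the terms of the study had both proteins. It began 101 bp downstream of the innermost start site it left free and covered the remaining 5 start sites of the 9 annotated. The 4 outer start sites, among them those of 3 protein-coding transcripts, lay under no peak of any list, and the nearest RGC RBPJ base lay 1107 bp from the outermost. Peak 3, at chr5:115439934-115440532, lay in intron 7, was 599 bp wide, was called for RGC RBPJ alone and belonged to cluster 5.

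**Figure D4:**
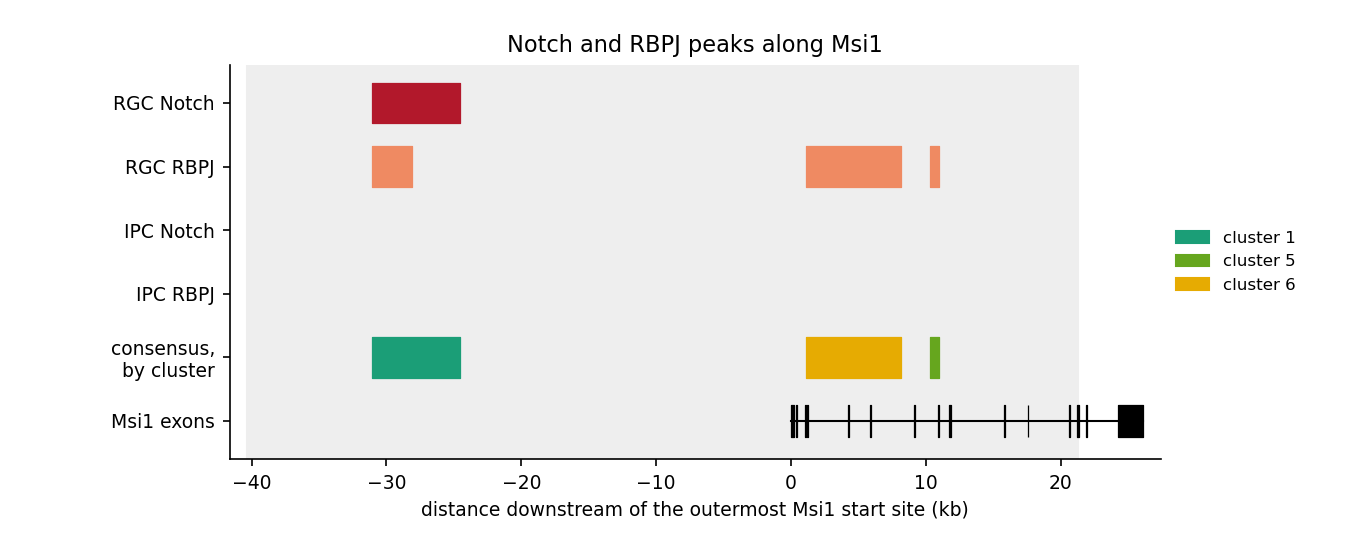
Peaks along Msi1, with distance downstream of its outermost start site in kb on the x axis, 1 row per peak list, the 3 consensus peaks coloured by cluster and the exons. The single RGC Notch peak lies 24.6 kb upstream, the RGC RBPJ peaks inside the gene begin after its outer start sites, and the rows of both IPC lists are empty.

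The first peak beyond the Msi1 stretch on the upstream side, at chr5:115375595-115377816, was called for RGC Notch alone and lay 26.6 kb from Cox6a1 and 51.8 kb from Msi1. On the other side the next consensus peak lay on a start site of Sirt4 and was called for IPC Notch. At the promoter the 2 Musashi genes thus differed in their calls, with Notch over all outer start sites of Msi2 and no peak over those of Msi1. RGC RBPJ peaks lay 102 bp from an outer start site of Msi2 and 101 bp from one of Msi1. The stretches held 2.47 and 2.44 GATC sites per kb, so offsets this small may be finer than the method resolves. The upstream peaks of both genes were called for RGC Notch and belonged to cluster 1, at 40.6 kb for Msi2 and 24.6 kb for Msi1, and that of Msi1 also held RGC RBPJ.

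Musashi peaks were wide. The median width was 3237 bp for the 25 Msi2 peaks and 6522 bp for the 3 Msi1 peaks, against 1890 bp over all consensus peaks. At Msi2, 8 peaks (32%) reached 5 kb, against 5.19% of all. Merging widens consensus peaks, but single-list peaks were wide too, with a median of 3381 bp for RGC Notch peaks of Msi2 against 2389 bp for the list, and of 3258.5 bp for RGC RBPJ peaks against 2059 bp. The IPC Notch peaks of Msi2 had a median of 1267 bp, against 1284 bp for that list, and the IPC RBPJ peaks one of 1991 bp, against 1398 bp.

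The density of the RBPJ word at the Musashi genes was close to that of other peaks. The 25 Msi2 peaks held 100 TTCCCA words, or 1.10 per kb (Poisson 95% interval 0.892 to 1.33), against 1.17 per kb over all consensus peaks. The Msi2 stretch outside its peaks held 1.11 per kb. The 3 Msi1 peaks held 19 words, 1.34 per kb (0.806 to 2.09), against 1.12 outside. TTCCCA was absent from 6 of 25 Msi2 peaks (24.0%) and from 17.1% of all consensus peaks. For TTCCCAC the densities were 0.296 per kb at Msi2, 0.141 at Msi1 and 0.270 over all peaks, with the word absent from 11 Msi2 peaks (44.0%) and 58.8% of all. Shares of peaks with or without a word depend on width, and the median width was 3237 bp at Msi2 against 1890 bp over all peaks. Words on opposite strands within 30 bp, counted in either order, occurred in 1 Msi2 peak (4%), 0 Msi1 peaks and 3.39% of all peaks.

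**Figure D5:**
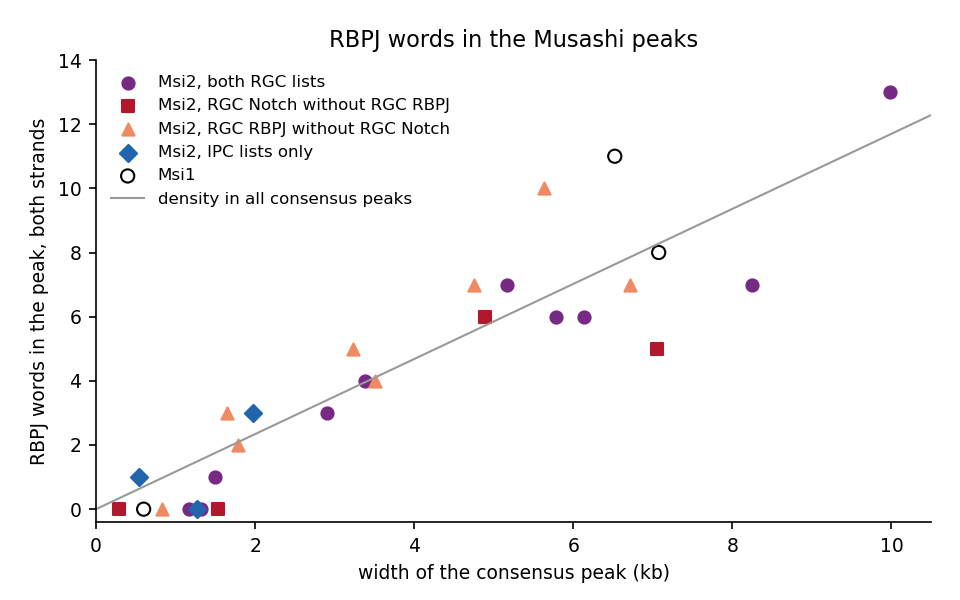
RBPJ words on both strands (y axis, count) against the width of the consensus peak in kb (x axis) for the 25 Msi2 peaks, marked by their calls, and the 3 Msi1 peaks (open circles). The grey line is the 1.17 words per kb of all consensus peaks, and the points of every kind of call lie on both sides of it, up to 13 words in the 9977 bp of peak 15.

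Divided by call, Msi2 peaks with Notch and RBPJ in RGCs held 1.03 words per kb (0.758 to 1.37, 10 peaks). Those with RBPJ but not Notch held 1.35 per kb (0.957 to 1.86, 8 peaks) and those with Notch but not RBPJ held 0.800 per kb (0.399 to 1.43, 4 peaks). These intervals overlapped. Over all consensus peaks the same kinds held 1.14, 1.21 and 0.999 per kb. The segment of peak 21 common to all lists held the 4 words printed above in 2384 bp, 1.68 per kb, with 9 GATC sites and no TTCCCAC.

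At the Msi2 promoter no TTCCCA was found in the 250 bases printed, nor in its 3 entries in the RefSeq promoter table, whose windows run from 250 bases before to 50 after a start. Of the 27025 genes with an entry, 28.3% had the word in at least 1. That the word is missing from a window says only that these letters are not in it. Peak 2 as a whole held 3 words in 2907 bp. TAATTA, a homeobox word, occurred at 0.351 per kb in Msi2 peaks, 0.282 in Msi1 peaks and 0.358 in all peaks.

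GATC sites set the resolution of the method, and Msi2 was not unusual in them. Its peaks held 3.09 GATC per kb (2.74 to 3.47) and those of Msi1 2.82 (2.01 to 3.84), against 2.91 in all consensus peaks. The stretches as a whole held 2.47 per kb at Msi2 and 2.44 at Msi1, and outside the peaks 2.23 and 2.32. The peaks of Msi2 had a GC content of 47.8%, those of Msi1 52.7% and all peaks 46.2%.

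Other genes of neural RNA-binding proteins gave a background for the family. Of 42 such genes besides the Musashi pair, 16 (38.1%) had an RGC Notch peak, against 11.5% of all protein-coding genes, and 26 (61.9%) an RGC RBPJ peak, against 30.9%. An IPC Notch peak was assigned to 6 (14.3%, against 6.91%) and an IPC RBPJ peak to 15 (35.7%, against 16.1%). Stretches differ in length, and these shares were not set against it. The 42 genes had a median of 1 consensus peak, and 11 had none. Celf2 led with 26 consensus peaks and 11 RGC Notch peaks on 2184.8 kb. It was followed by Qk, whose protein QKI governs RNA processing in glia, with 13 consensus peaks and 4 RGC Notch peaks, and by Celf4 and Rbfox1, splicing regulators, with 12 each and 3 RGC Notch peaks each. Nova1 had 11 consensus peaks, with 6 peaks in each RBPJ list and 1 in each Notch list. Msi2 thus had 1 consensus peak fewer than Celf2 but 4 more RGC Notch peaks, on a stretch of 338 kb.

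The genes of 4 mRNAs that Musashi proteins are known to bind each had 1 or 2 consensus peaks, whereas 13445 of the 21938 protein-coding genes had none. Of the 4, 1 had an RGC Notch peak, against 11.5% of all protein-coding genes. An RGC RBPJ peak was assigned to 3, against 30.9%, and an IPC Notch peak to 2, against 6.91%. With 4 genes, nothing is read from these shares. Numb, the Notch inhibitor, had 2 consensus peaks, with 2 RGC Notch peaks, 1 RGC RBPJ peak and 1 IPC Notch peak. Cdkn1a, which encodes the cell-cycle inhibitor p21, had 2 RGC RBPJ peaks and no Notch peak. Robo3, an axon guidance receptor, had 1 IPC Notch peak, and Tgfbr1, a receptor of TGF-β, had 1 RGC RBPJ peak. None of the 4 had an IPC RBPJ peak, against 16.1% of all protein-coding genes with one.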

How the data were processed

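The study profiled 39 samples by in utero Targeted DamID, and the 4 peak lists used here come from 14 of them. The authors trimmed single-end reads, aligned them to mm10 and ran MACS2 in broad mode on each fusion sample against each Dam-only sample, retaining regions under an FDR limit in every pairing. They merged overlapping peaks into consensus peaks and divided these by k-means on averaged intensities. The deposited files used here give positions, and the consensus file also the cluster number and the calling lists. They hold 0 columns of single samples, so depth cannot be read from them and they allow no test or replicate check. Other data of the samples were not analysed here.

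Peaks were assigned to the nearest start site of any transcript of a protein-coding gene (GENCODE, GRCm38), distance running from the peak edge. Peaks of the mitochondrial genome were left out. Words were counted on both strands. Shares carry Wilson and word densities exact Poisson intervals (95%). Python 3.11.15, numpy 2.4.6, scipy 1.17.1 and matplotlib 3.10.9 were used, and the assignment and word counts were checked on simulated data. The genes, lists and words were chosen with earlier results of these data known. Genes other than Msi1 and Msi2 were named by rule: those bordering a stretch, the 3 nearest in counts over the lists, the next 2 by RGC Notch peaks, the 5 RNA-binding protein genes with the most consensus peaks and 4 genes of Musashi-bound mRNAs. Zfp608, Sirt4, Gm11510 and Gm11493 aside, no gene was named after its values were seen.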

Additional observations from a re-analysis of the deposited data

How the results depend on the processing

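Of 85 values recomputed under another setting, 62 were counted as the same and 23 as moved, with a limit of 1.5 times. The median gap of Msi2 was counted as the same although it changed by more than that. It was 3.37 kb between peak edges, 8.37 kb between midpoints and 7.88 kb between RGC Notch peaks alone. No paired analysis was possible because the lists are pooled over samples, and for the same reason no replicate was left out.

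With start sites of all annotated genes, Msi2 had 9 RGC Notch, 3 IPC Notch and 2 IPC RBPJ peaks, since Gm11510 took 6 of its 25 consensus peaks and Gm11493 1. Msi1 then had 1 consensus peak, 0 RGC Notch and 1 RGC RBPJ peak, and ranked 1644 by RGC Notch peaks. With 1 start site per gene Msi2 had 3 IPC Notch and 2 IPC RBPJ peaks and ranked 4 by RGC Notch peaks, with 10. Within 100 kb of the start site it had 3 IPC Notch and 2 IPC RBPJ peaks and ranked 2, also with 10. With peaks of at least 1000 bp it had 3 IPC Notch peaks and ranked 2, with 12. Counted by the gene record, a setting added after the data had been seen, Msi2 had 17 RGC Notch peaks and ranked 1, and Msi1 had 0 and ranked 1880. By density per 100 kb, Msi2 ranked 450 on the gene record and 1 among stretches of at least 100 kb, and Msi1 ranked 1880 on the record and 244 by the share covered. Relative to all consensus peaks, the RBPJ word density of Msi1 was 1.15, but 0.522 for the 7-base word and 0 in the central 500 bp. These ratios rest on 3 peaks. The joint calls of Notch and RBPJ at Msi2, 10 in RGCs and 1 in IPCs, were the same when the peaks had to share 1 bp or 50% of the shorter.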
